A study of Mus musculus with 19 samples.

Results

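The 9 genes described here encode enzymes of the last stretch of cholesterol synthesis, from the formation of squalene to cholesterol. They are Fdft1, Sqle, Lss, Cyp51, Tm7sf2, Msmo1, Nsdhl, Hsd17b7 and Dhcr7, and were chosen by name for their place in the pathway, from 55836 genes in the table. All 9 were among the 13597 genes that passed the filter on low counts.

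Poly(A) RNA was sequenced from the livers of 19 male wild-type C57BL/6 mice in 4 groups. Mice were 8 weeks old at the start and were fed for 8 weeks either a control diet (CD, 10 kcal% fat) or a diet with 2% cholesterol, 20 kcal% fructose and 40 kcal% fat (MD). Each mouse was also gavaged daily with 2 mg of polyethylene particles (PE) or with the vehicle alone (Veh), water with 0.1% Tween 20. Vehicle was given to 4 mice on the control diet (CD + Veh) and 5 on the MD (MD + Veh), and PE to 5 mice on each diet (CD + PE and MD + PE). Mice of a group shared housing, so cage and group cannot be told apart.

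Liver makes much of the cholesterol of the body. Squalene is made from farnesyl diphosphate, oxidised, closed into the ring system of lanosterol, and then trimmed and reduced to cholesterol. Transcription of these genes is known to be driven by SREBP2, which is held inactive in the endoplasmic reticulum when sterols are plentiful, so a diet with cholesterol is known to lower them in liver.

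Libraries held 10398820 to 15456729 estimated counts, with medians of 15089731.5 for CD + Veh and 14790140 for MD + Veh, and of 10837229 for CD + PE and 11615001 for MD + PE. The library numbers fell into 2 parts: the pseudogenes Rps6-ps4 and Rps12-ps3 had 1088 to 1690 and 314 to 587 counts up to number 45, and 0 from number 46. All CD + Veh libraries lay in the first part and all PE libraries in the second, with MD + Veh replicates 4 and 5, so on the control diet PE and this division cannot be told apart within the 2 groups. A score of clock genes also set CD + Veh apart, at -4.97 to -3.78 against -2.55 to -0.00412 for MD + Veh, -3.32 to 0.585 for CD + PE and -2.20 to -0.207 for MD + PE. The summed hepatocyte markers were 70410 to 87272 CPM for CD + Veh and 64019 to 91582 for CD + PE, but 47761 to 61218 for MD + Veh and 45668 to 60330 for MD + PE, with none of the 6 at 0. Values are counts scaled to library size (CPM, with TMM factors), and errors are SD over mice unless given as SE.

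Sqle, squalene epoxidase, a rate-limiting enzyme of the pathway, had the lowest log2 fold change of all 13597 genes in MD + Veh against CD + Veh (rank 19 in MD + PE against CD + PE), and its upstream sequence is shown for that reason. It lies on chromosome 15 from 59186869 to 59203043 on the plus strand (GRCm39). The 237 bases before its outermost annotated start, chr15:59186632-59186868, read as follows, with capitals marking matches on either strand to CCAAT (the letters bound by NF-Y) and GGGCGG (those bound by Sp1).
Sqle: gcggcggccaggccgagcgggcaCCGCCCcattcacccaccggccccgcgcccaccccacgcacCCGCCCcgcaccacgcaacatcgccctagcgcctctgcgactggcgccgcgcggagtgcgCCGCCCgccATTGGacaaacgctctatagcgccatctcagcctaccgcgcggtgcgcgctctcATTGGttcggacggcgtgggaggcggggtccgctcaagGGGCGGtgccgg
These bases held 2 matches to CCAAT and 4 to GGGCGG. In windows from 250 bases before to 50 bases after the canonical start, 8 of 9 genes had CCAAT, against 39.9% of 21751 promoters, with Dhcr7 the exception. GGGCGG was found in 6 of 9, against 42.5%, and was missing from Fdft1, Nsdhl and Dhcr7. TCACNCCAC, a spelling of the sterol response element, was found in 0 of 9, against 1.33%. Matches were searched on both strands and describe letters only.

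The means of all 9 genes followed the same order, CD + Veh above CD + PE above MD + Veh above MD + PE. As a share of the CD + Veh mean, the 9 genes stood at 36.7% to 79.3% with PE on the CD (median 58.8%). On the MD they stood at 1.96% to 37.0% with vehicle (median 24.4%) and at 0.794% to 27.3% with PE (median 12.4%). In bulk liver, fewer hepatocytes and less RNA per hepatocyte cannot be told apart.

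**Figure D1:**
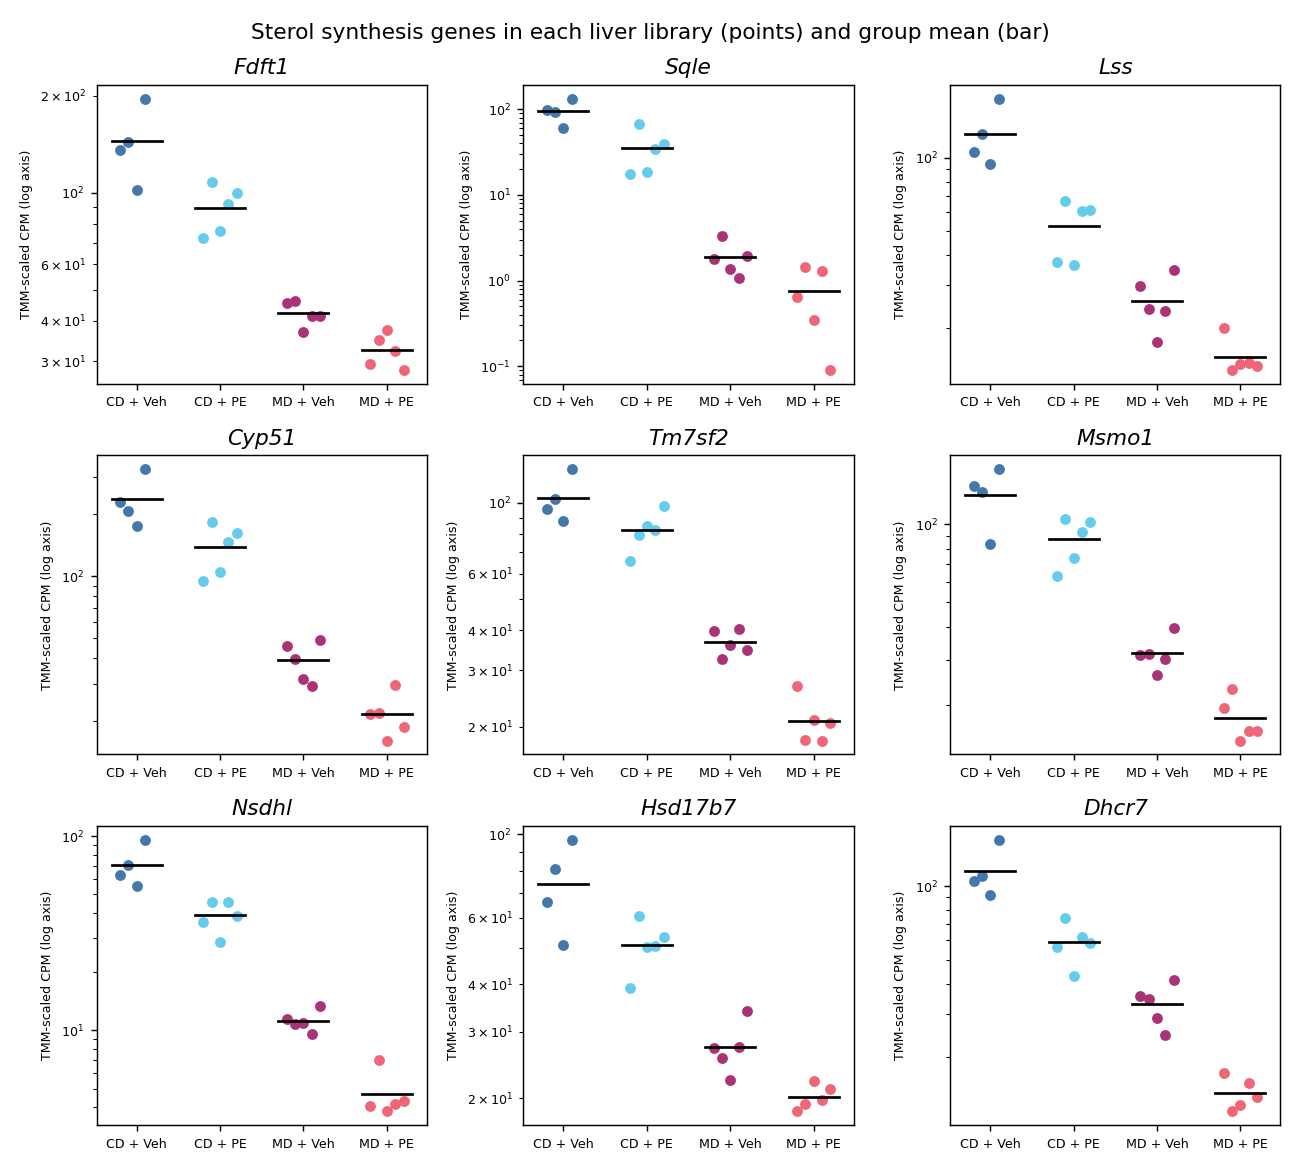
Level of each gene in each of the 19 libraries (points; TMM-scaled CPM, log axis) by group, with the group mean as a bar. In every panel the 4 CD + Veh libraries lie above all MD libraries, and Sqle spans the widest range, from 133 CPM to 0.0898 CPM.

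The first question was what the MD did in mice given vehicle. All 9 genes fell in MD + Veh against CD + Veh, where 5.63% of all genes tested were called lower, and for all 9 the groups did not overlap, against 8.88% of all genes. Calls needed an adjusted p (Benjamini-Hochberg) under 0.05 in edgeR's quasi-likelihood test and a log2 change of 0.38 or more in size.

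Sqle was 98.6, 92.0, 61.0 and 133 CPM in CD + Veh replicates 1 to 4 and 1.77, 3.28, 1.36, 1.08 and 1.93 CPM in MD + Veh replicates 1 to 5. The lowest control library was far above the highest MD library. The fall was 50.1-fold (log2 fold change -5.65, SE 0.43, edgeR adjusted p = 1.55e-07), and the log2 fold change was -6.29 with the clock score as a covariate.

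Fdft1, squalene synthase (chromosome 14, 63382189 to 63417027, minus strand), had 136, 144, 102 and 196 CPM in CD + Veh and 45.4, 46.1, 37.0, 41.4 and 41.5 CPM in MD + Veh. The MD libraries were closely grouped and all below the controls. The log2 fold change was -1.77 (SE 0.15, edgeR adjusted p = 4.24e-07).

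Lss, lanosterol synthase, which closes the rings (chromosome 10, 76367298 to 76392976, plus strand), had 106, 126, 94.5 and 175 CPM in CD + Veh and 29.9, 24.0, 17.5, 23.6 and 34.8 CPM in MD + Veh. Cyp51, the cytochrome P450 that demethylates lanosterol (chromosome 5, 4123416 to 4154751, minus strand), had 228, 207, 175 and 329 CPM in CD + Veh and 45.9, 39.8, 31.8, 29.5 and 49.4 CPM in MD + Veh. Neither gene overlapped between the groups. Lss fell 4.83-fold (edgeR adjusted p = 1.54e-06) and Cyp51 5.98-fold (edgeR adjusted p = 5.55e-07).

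Tm7sf2, the sterol reductase that acts on the product of Cyp51 (chromosome 19, 6112851 to 6118403, minus strand), had 95.6, 102, 87.9 and 128 CPM in CD + Veh and 39.8, 32.5, 36.1, 40.3 and 34.7 CPM in MD + Veh. Its libraries varied little within MD + Veh, with an SD of 3.36 CPM. It fell 2.82-fold (edgeR adjusted p = 4.24e-07).

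Msmo1, Nsdhl and Hsd17b7 act together to remove methyl groups from the sterol ring, as oxidase, dehydrogenase and ketone reductase. Nsdhl (chromosome X, 71961712 to 72002129, plus strand) had 63.1, 70.8, 55.4 and 95.9 CPM in CD + Veh and 11.5, 10.8, 10.9, 9.60 and 13.3 CPM in MD + Veh, a fall of 6.36-fold (edgeR adjusted p = 3.52e-08). After Sqle this was the largest fall among the 9. Msmo1 (chromosome 8, 65170603 to 65186830, minus strand) fell 4.09-fold (edgeR adjusted p = 7.73e-07), from 130 ± 33.6 CPM (SD, n = 4) to 31.8 ± 5.01 CPM (SD, n = 5). Hsd17b7 (chromosome 1, 169777093 to 169796813, minus strand) had the smallest fall of the 9, 2.71-fold (edgeR adjusted p = 4.65e-06), from 73.7 ± 19.7 CPM (SD, n = 4) to 27.3 ± 4.21 CPM (SD, n = 5).

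Dhcr7, dehydrocholesterol reductase, which can complete cholesterol (chromosome 7, 143376740 to 143402149, plus strand), had 105, 110, 92.2 and 155 CPM in CD + Veh and 35.4, 34.5, 29.0, 24.6 and 41.3 CPM in MD + Veh. All MD libraries were below all controls. The fall was 3.50-fold (edgeR adjusted p = 1.04e-06). The summed hepatocyte markers were also lower in the MD groups, as given above, with 3 of 6 called lower. All 7 skeletal muscle markers were called higher in MD + Veh, where 4.74% of all genes were called higher, but the groups overlapped for each of them. Their summed level was 2.63 to 2841 CPM (median 123) in MD + Veh against 0.933 to 33.7 CPM (median 1.38) in CD + Veh. Gpnmb, 1 of 6 macrophage markers, Fabp2, 1 of 2 intestinal markers tested, and Cfd, the 1 adipocyte marker tested, were also called higher. Lgals4, the other intestinal marker tested, had a log2 fold change of -0.25 and was not called. Median levels in MD + Veh were 117 CPM for Fabp2 (53.2 in CD + Veh) and 88.6 CPM for Cfd. For the untested intestinal markers they were 0.0772 CPM (Vil1) and 0 (Cdx2, Krt20 and Muc13). For the untested adipocyte markers they were 0.136 CPM (Adipoq and Plin1) and 0.124 CPM (Lep and Adig), with 4.18 CPM the highest single value. The part of these markers in the falls was not tested. All 9 genes were called in each alternative fit of this comparison.

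**Figure D2:**
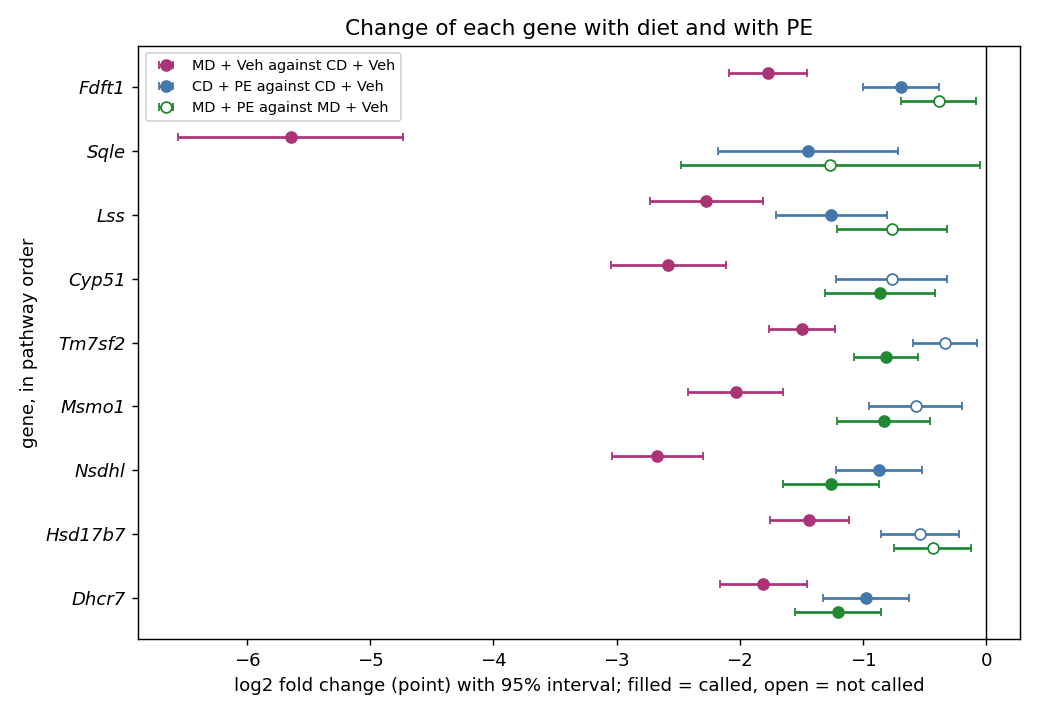
Log2 fold change of each gene, in pathway order, for MD + Veh against CD + Veh, CD + PE against CD + Veh and MD + PE against MD + Veh, with 95% intervals; filled points were called. All points lie below 0, and the diet change of Sqle, -5.65, lies far from the others.

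The next question was what PE did on the control diet. Of the 9 genes, 5 fell in CD + PE against CD + Veh, where 1.7% of all genes were called lower: Fdft1, Sqle, Lss, Nsdhl and Dhcr7. In 3 of them, Lss, Nsdhl and Dhcr7, the groups did not overlap, against 4.35% of all genes. The comparison shares the CD + Veh libraries with the one above.

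Sqle was 17.5, 66.9, 18.7, 33.9 and 39.7 CPM in CD + PE replicates 1 to 5. Replicate 2 lay above CD + Veh replicate 3, so the groups overlapped. The log2 fold change was -1.45 (SE 0.35, edgeR adjusted p = 0.0251).

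Lss was 37.4, 66.6, 36.5, 60.8 and 61.4 CPM in CD + PE, all below the lowest control of 94.5 CPM. Its fall of 2.39-fold had a 95% interval of 1.75 to 3.26 (edgeR adjusted p = 0.00301). Dhcr7 was 56.2, 74.4, 43.1, 62.1 and 58.7 CPM, again all below the controls, and fell 1.96-fold (edgeR adjusted p = 0.00306).

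Nsdhl was 35.9, 45.8, 28.6, 46 and 38.7 CPM and fell 1.83-fold (edgeR adjusted p = 0.00692). Its highest PE library was below its lowest control. Fdft1 was 72.2, 108, 75.8, 92.2 and 99.9 CPM and fell 1.61-fold (edgeR adjusted p = 0.013), with replicate 2 above the lowest control.

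The other 4 genes did not pass. Cyp51 had a log2 fold change of -0.77 (edgeR adjusted p = 0.0528), Hsd17b7 -0.54 (0.0535), Msmo1 -0.57 (0.0836) and Tm7sf2 -0.33 (0.155), and their 95% intervals all lay below 0. At an unadjusted p below 0.05 all 9 were counted. The share of all genes below that limit was not counted, here or for the unadjusted counts that follow.

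The number called depended on the fit. The share of all genes called is given in this report for the main edgeR fit only, so counts under other fits stand without it. DESeq2 called 8 of 9, while 0 of 9 were called with the library number division as a covariate (6 at an unadjusted p below 0.05) and 3 with the clock score as a covariate. Only MD + Veh held libraries of both parts, so this covariate took the effect of the division from that group alone. With the division as a covariate the log2 fold change of Dhcr7 was -0.97, as in the main fit, and its edgeR adjusted p 0.157. CD + Veh replicate 4 was the highest control library, and replicate 3 the lowest, for all 9 genes. Without replicate 4, 3 genes were called, and without replicate 3, 8.

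**Figure D3:**
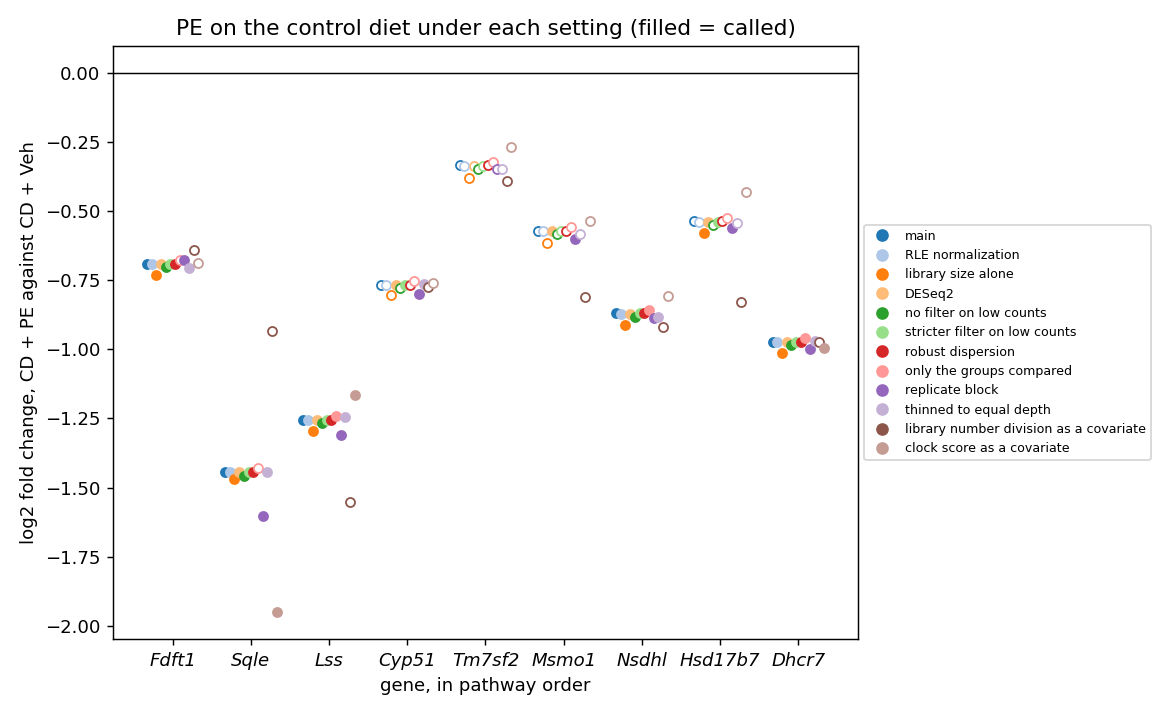
Log2 fold change of each gene in CD + PE against CD + Veh under each fit (colours), filled where the gene was called. Every point lies below 0, and no gene is filled with the library number division as a covariate.

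On the MD, PE was again compared with vehicle. Of the 9 genes, 5 fell in MD + PE against MD + Veh, where 0.934% of all genes were called lower: Cyp51, Tm7sf2, Msmo1, Nsdhl and Dhcr7. The groups did not overlap for Tm7sf2, Msmo1, Nsdhl, Hsd17b7 and Dhcr7, 5 of 9, against 2.49% of all genes. This comparison shares MD + Veh with the diet comparison.

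Dhcr7 was 17.3, 12.0, 12.8, 15.7 and 13.7 CPM in MD + PE, below every MD + Veh library. It fell 2.30-fold, with a 95% interval of 1.80 to 2.93 (edgeR adjusted p = 0.001). Nsdhl was 4.06, 6.99, 3.82, 4.19 and 4.31 CPM and fell 2.40-fold (edgeR adjusted p = 0.00158). Replicate 2 was the highest of these and still under the MD + Veh libraries.

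Tm7sf2 was 26.7, 18.1, 20.9, 18.1 and 20.6 CPM in MD + PE and fell 1.76-fold (edgeR adjusted p = 0.00199). Msmo1 was 19.5, 23.2, 14.6, 16 and 16 CPM and fell 1.78-fold (edgeR adjusted p = 0.0259). Both lay wholly below MD + Veh. Cyp51 was 21.5, 21.9, 16, 29.9 and 18.6 CPM, with replicate 4 inside the MD + Veh range, and its adjusted p of 0.0496 in edgeR was close to the limit.

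Hsd17b7 did not overlap between the groups but was not called, at a log2 fold change of -0.43 (edgeR adjusted p = 0.149). Lss had -0.77 (0.0745) and Fdft1 -0.39 (0.19). Sqle had 8, 17, 4, 19 and 1 counts in the MD + PE libraries against 28, 53, 20, 14 and 25 in MD + Veh. At counts this low its log2 fold change of -1.26 had an SE of 0.58, and it was not called (edgeR adjusted p = 0.299). Its 95% interval was wide, from -2.48 to -0.0471. The intervals of Hsd17b7, Lss and Fdft1 also lay below 0. At an unadjusted p below 0.05 in edgeR all 9 genes were counted, as on the control diet.

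DESeq2 called 6 of 9. With the division as a covariate, or with library size alone as scaling, 3 of 9 were called. Without MD + Veh replicate 1 or 2, or without MD + PE replicate 3 or 5, 3 were called. MD + Veh replicate 1 had 2841 CPM of summed skeletal muscle markers, against at most 2.52 CPM in MD + PE.

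Whether the PE change differed between diets was tested with the interaction of PE and diet. It was called for 0 of 9 genes in edgeR and 0 of 9 in DESeq2, where edgeR called 0.00735% of all genes, 1 gene, and 1 of 9 had an unadjusted p below 0.05. That gene was Tm7sf2, whose log2 fold change with PE was more negative by 0.48 on the MD (95% interval -0.85 to -0.11, edgeR adjusted p = 0.425). For the other 8 the intervals included 0, from the widest, -1.36 to 1.73 for Sqle, to narrower ones such as -0.34 to 0.55 for Hsd17b7.

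The remaining comparisons share these libraries and are given side by side. All 9 genes fell in MD + PE against CD + PE (background 2.92% called lower), in MD + PE against CD + Veh (8.55%) and in MD + Veh against CD + PE (2.83%). The groups did not overlap for 9 of 9 in each, against 3.96%, 11.3% and 3.74% of all genes. The comparison of MD + Veh with CD + PE was added after the data were seen. Its groups differ in both diet and gavage. Sqle was 18.4-fold lower in MD + Veh than in CD + PE, Cyp51 3.51-fold, Nsdhl 3.48-fold and Dhcr7 1.79-fold, the smallest of the 9. In MD + PE against CD + Veh, Sqle was 120-fold lower (95% interval 59.1 to 245) and Nsdhl 15.2-fold. The log2 fold change of Sqle was -6.91, and -7.51 with the clock score as a covariate. CD + Veh lay wholly in the first part of the library numbers and MD + PE wholly in the second. Within these groups, diet with PE and the division cannot be told apart.

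**Figure D4:**
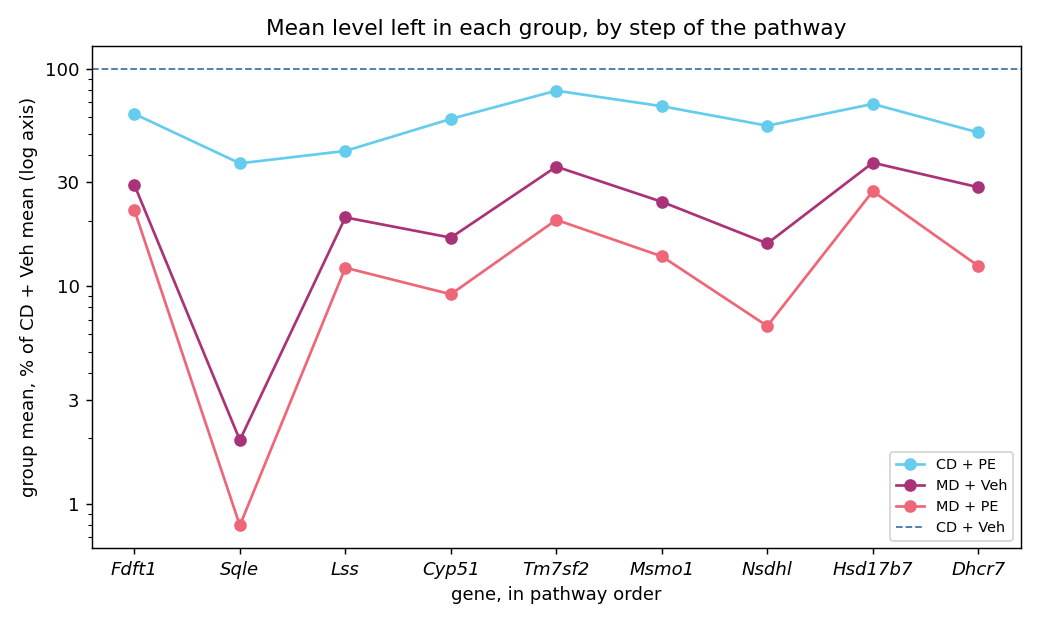
Group mean of each gene as a percent of its CD + Veh mean (log axis), in pathway order. CD + PE lies between 36.7% and 79.3%, the lines keep their order at every step, and Sqle drops to 1.96% in MD + Veh and 0.794% in MD + PE.

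Levels can be set between genes only per length, here as CPM per kilobase of the canonical transcript. In CD + Veh, Tm7sf2 was highest at 69.3 ± 11.5 and Hsd17b7 lowest at 16 ± 4.26 (SD, n = 4), and Msmo1 at 49.8 ± 12.9, Cyp51 at 47.3 ± 13.4 and Fdft1 at 41.6 ± 11.2 lay within each other's SD. The canonical length was chosen after levels per length of all annotated exons had been seen, and the order depends on this choice. Per length of all annotated exons, Cyp51 was highest at 39.5 and Sqle lowest at 10.8, and Tm7sf2 ranked 3. Under both lengths Sqle ranked 9 of 9 in MD + Veh and MD + PE, at 0.672 and 0.272 CPM per kilobase of the canonical transcript.

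Within groups, how far the genes varied together differed. Over the 36 pairs of genes, Pearson's r of log2 CPM over 19 libraries with group means removed had a median of 0.60, from -0.00896 for Sqle and Tm7sf2 to 0.827 for Lss and Dhcr7. These points share library and depth. The pooled value did not hold in each group: the median over pairs was 0.947 over the 4 CD + Veh libraries, and over 5 libraries each it was 0.797 for CD + PE and 0.575 for MD + Veh. For MD + PE it was -0.0128, with pairs from -0.752 to 0.904. All pairs of a group share the same 4 or 5 mice, so single mice weigh heavily. Whether the groups differ in r was not tested. In CD + Veh, replicate 4 was highest and replicate 3 lowest for all 9 genes. In CD + PE, replicate 2 was highest for 7 genes and replicate 1 lowest for 6. Replicate 2 also had the highest macrophage marker sum of its group, 249 CPM (median 64.7), and the highest clock score, 0.585, and replicate 1 the highest skeletal muscle marker sum, 377 CPM (median 3.00). Their part in these levels was not tested. Of the genes outside the 9, the profiles most like their mean over 19 libraries were those of Idi1 (r = 0.989), Rdh11, Fdps, Pmvk, Pstpip2, Chrna4, Acat2, Acss2, Avpi1 and Mvk (r = 0.971), which follow the same group differences. With group means removed, r for these 10 was 0.669 to 0.910.

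Other genes of the pathway were counted from lists. For each list below, the share of all genes called lower was 5.63% in MD + Veh against CD + Veh. With PE it was 1.7% on the CD and 0.934% on the MD. Of 8 upstream enzymes, which make farnesyl diphosphate and related units, 7 fell in MD + Veh against CD + Veh, led by Idi1 (isopentenyl diphosphate isomerase, log2 fold change -3.34), Fdps (-2.89), Pmvk (-2.28) and Mvd (-2.17), and Ggps1 had -0.09. With PE 3 of 8 fell on the CD (Acat2, Pmvk and Fdps) and 4 of 8 on the MD (Mvk, Pmvk, Idi1 and Fdps). Of the 4 other genes acting after squalene that are reported here, 4 fell on the MD, with Erg28 at -1.13, Sc5d at -0.96, Lbr at -0.78 and Ebp at -0.38. Sc5d was the 1 of these 4 called with PE, at -0.48 on the CD and -0.73 on the MD. Ebp, at -0.30 on the CD (edgeR adjusted p = 0.025) and -0.33 on the MD (0.0214), missed only the limit of 0.38. Its groups did not overlap with PE on either diet. For Lbr and Erg28 the edgeR adjusted p with PE was 0.225 or more.

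Of 7 genes of the SREBP machinery, Scap, the SREBP escort, at -1.07, and Srebf2, which encodes SREBP2, at -0.46, fell with the MD. Insig2, which retains the escort, rose at 1.36. Insig1 had -0.76 without overlap between the groups, but was not called (edgeR adjusted p = 0.0677). With PE, Scap fell on the CD (-0.65) and Srebf2 on the MD (-0.39). Insig1 had -0.43 with PE on the CD (edgeR adjusted p = 0.448) and -0.86 on the MD (0.0989), and was not called. Of 4 sterol efflux genes, Abcg5 (1.54), Abcg8 (1.19) and Abcg1 (1.14), transporters that export sterols, rose with the MD, where 4.74% of all genes were called higher, and 0 of 4 were called with PE on either diet in edgeR, with 0 at an unadjusted p below 0.05.

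**Figure D5:**
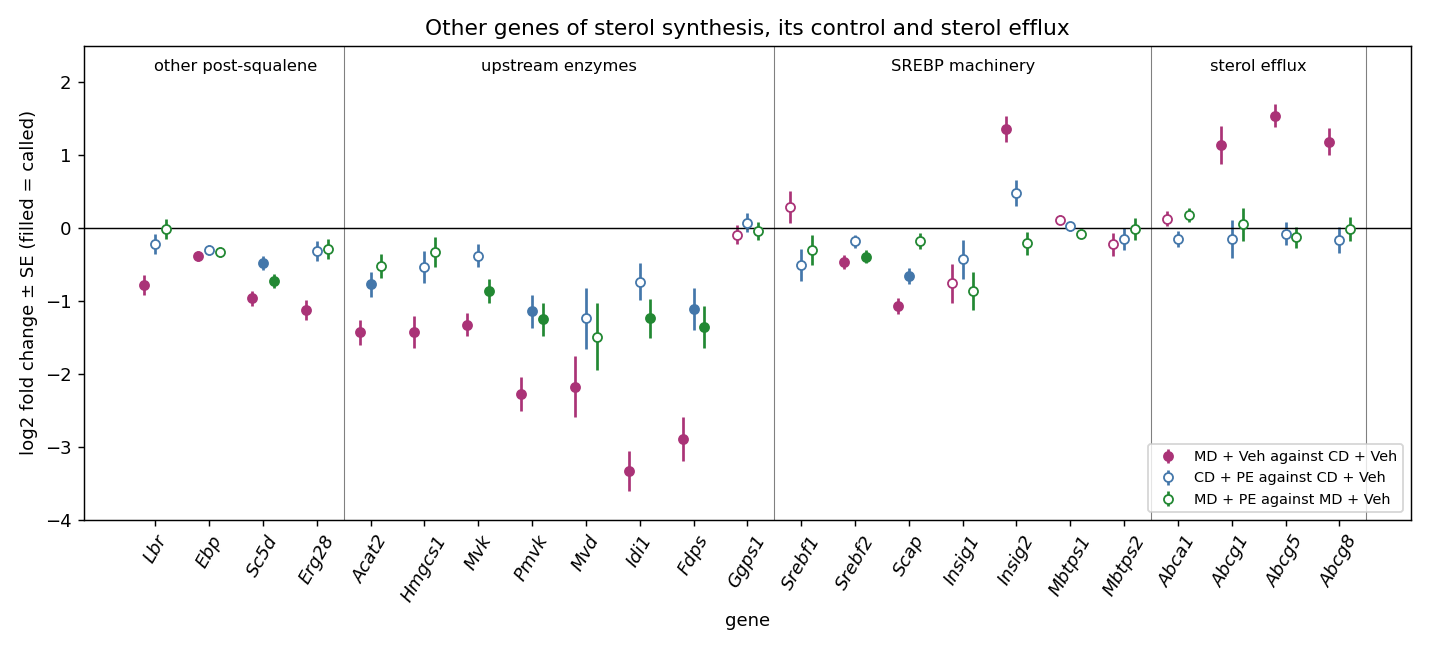
Log2 fold change with SE for other genes of sterol synthesis, its control and sterol efflux in the same 3 comparisons, filled where called. The upstream enzymes except Ggps1 lie below 0 in all 3, and Abcg1, Abcg5 and Abcg8 are filled above 0 for diet alone.

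Exons of 6 of the 9 genes overlap exons of other annotated genes (Fdft1, Sqle, Lss, Cyp51, Tm7sf2 and Nsdhl). The libraries were stranded and Salmon detected the library type itself, and the type it settled on is not given in the sources used here. How far reads of such partners were separated was not tested.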

How the data were processed

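Liver poly(A) RNA of 19 mice was sequenced. Per the labels, reads were trimmed with fastp 0.23.4 and the authors' estimated counts per gene came from Salmon 1.10.3 (GRCm39). The GENCODE release is not given in the sources used here. The deposited values are estimated counts in whole numbers, used as such.

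Groups came from the labels. Genes were filtered with filterByExpr, scaled by TMM and fitted over all 19 libraries with edgeR 4.0.16 in R 4.3.3 (quasi-likelihood, two-sided). Adjusted p is Benjamini-Hochberg over 13597 genes, called below 0.05 and at a log2 change of 0.38 or more in size. The replicates differed beyond sampling noise. P-values set the difference between groups against the spread between mice within groups, estimated over all groups together. Mice of a group shared housing, so this spread does not cover differences between cages. The clock score is the mean log2 CPM of Bmal1, Clock and Npas2 minus that of Per2, Per3, Dbp, Tef, Nr1d1, Nr1d2 and Ciart.

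Named genes were all 9 members, up to 4 of each list by size of change, and the 10 most similar profiles; genes called or not called were also named where 5 or fewer. Members and lists were chosen with earlier results of these data known. Gene lengths per kilobase are of the Ensembl canonical transcript. This length replaced the union of annotated exons after levels under that length had been seen, and both are given. Alternatives were DESeq2 1.42.0, RLE and library size scaling, other filters, robust dispersion, only the groups compared, a replicate block, thinning, 2 covariates and leaving out each library. The test was tested on simulated data. Some genes of the pathway, in the lists too, are not reported here, so list counts cover the genes reported.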

Additional observations from a re-analysis of the deposited data

Results flagged for a closer look

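Of 36 sets of values (9 genes in 4 groups), 2 held a library far from the others by Dixon's test, which flags about 1 in 20 groups by chance. Lss in MD + PE replicate 1 was 19.99 CPM against 14.5 CPM in the nearest library, a gap of 0.844 of the range. Nsdhl in MD + PE replicate 2 was 6.99 CPM against 4.31 CPM, a gap of 0.847 of the range, and this library also had the highest summed intestinal markers, 269 CPM against 113 at the lowest in MD + PE. Their part in the value was not tested.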

How the results depend on the processing

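All 9 genes were called lower in every alternative fit of MD + Veh against CD + Veh, MD + PE against CD + PE and MD + PE against CD + Veh. In MD + Veh against CD + PE, 6 to 9 were called, 6 with the library number division as a covariate. The interaction gave 0 throughout. In CD + PE against CD + Veh, where 5 were called, DESeq2 gave 8, the replicate block 8, only the groups compared 3, adjustment for the clock score 3 and adjustment for the division 0, and leaving out 1 library gave 3 to 8. In MD + PE against MD + Veh, where 5 were called, DESeq2 gave 6, library size alone 3, the division 3, and leaving out 1 library 3 to 5. The cause was not tested. Cyp51 in MD + PE against MD + Veh stayed called in 5 of 19 fits with 1 library left out.

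The sign of the interaction turned for Cyp51 with library size alone (0.00476) and for Hsd17b7 with the clock score (-0.00787). With 1 library left out it ran from -0.30 to 0.0274 for Cyp51, -0.13 to 0.55 for Sqle and -0.0602 to 0.24 for Hsd17b7. None of these was called. Same-numbered mice did not deviate together (median r = 0.0293 over 27 pairs, 6 over 0.1), so the replicate block pairs mice by number only.

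Of the 10 genes most like the members, 6 were kept with Spearman's rho, 5 without the MD libraries and 6 with group means removed. With upstream bases alone, CCAAT was found in 7 of 9, against 36.5% of 21751 promoters, and GGGCGG in 6, against 36.3%.

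The length that scales a gene was changed after the levels were seen, from the union of annotated exons to the canonical transcript. Under the union, CD + Veh levels in CPM per kilobase were 30.3 for Fdft1, 10.8 for Sqle, 11.03 for Lss, 21.0 for Tm7sf2, 14.6 for Msmo1, 19.3 for Nsdhl and 14.1 for Dhcr7, each lower by more than its SD. Cyp51 and Hsd17b7 moved by less than their SD. The order of levels between genes therefore depends on this choice, while fold changes do not use it. At 1 to 19 counts, Sqle in MD + PE is limited by depth.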
